A study of Homo sapiens with 3 samples.

Results

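The cytosolic ribosomal protein genes of AB12 mouse mesothelioma cells were followed in cells labelled shNF2 and in cells labelled shSC. Genes were taken by symbol, as those that start with Rpl or Rps followed by a digit or p, without the ribosomal S6 kinases (Rps6k) and without rows whose symbol marks a pseudogene (-ps). The pattern matched 179 symbols, of which 86 were pseudogene rows and 8 were S6 kinase rows, and the remaining 85 were the ribosomal protein genes described here. All 85 had a mean of at least 10 scaled counts over the 3 libraries, out of 12813 genes with that mean and 13936 genes in the table. No gene lay near that limit, as the lowest mean was 544 scaled counts (Rps3a3) and none of the 85 fell under 10. The 85 hold all 46 large subunit proteins and all 30 small subunit proteins of a standard list of 76. That list holds only symbols that the rule matches and leaves out subunit genes such as Fau and Rpsa, so it is not the full set. They also hold 8 paralogue or retrogene rows (Rpl7l1, Rpl22l1, Rpl36al, Rpl37rt, Rps3a2, Rps3a3, Rps27l and Rps27rt) and Rps19bp1, which encodes a binding partner of Rps19 and is not a subunit of the ribosome.

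There were 2 shNF2 libraries, which the labels number 20 and 21 and which are called library 20 and library 21 here, and 1 shSC library. Merlin, the product of NF2, is a tumour suppressor found beneath the cell membrane, and shNF2 is read as a hairpin against it. The label shSC is taken as the control hairpin. All 3 libraries came from AB12, a cultured line, grown in RPMI medium with serum, with polyA-selected RNA. The labels do not say what the numbers 20 and 21 stand for or that the libraries came from separate cultures, so each p-value below reflects how far these libraries scatter, and that scatter may be purely technical. In such bulk RNA, fewer cells of a kind and less RNA per cell cannot be told apart.

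A cytosolic ribosome has a large subunit, which joins amino acids, and a small subunit, which reads the messenger RNA, and each is built from ribosomal RNA and a set of proteins made in matched amounts. The messenger RNAs of these proteins are among the most abundant in growing cells and carry a 5′ terminal oligopyrimidine tract, through which mTORC1 and the Larp1 protein control how strongly they are translated. Copies of these genes are scattered over mammalian genomes as processed pseudogenes, which makes short reads from them hard to place.

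The libraries held 25837151 reads in genes (library 20), 26829163 (library 21) and 29532600 (shSC). Nf2 had 486 and 458 scaled counts in libraries 20 and 21 against 1539 in shSC, a log2 fold change of -1.70 ± 0.24 (limma standard error, adjusted p = 0.00555); it did not pass under quantile normalization or without a variance trend (adjusted p = 0.496 and 0.187). Of 8 mesothelial markers 5 were in the table. In library 20, library 21 and shSC, Msln had 9722, 8977 and 7397 scaled counts, Krt8 had 6476, 5420 and 7683, Krt18 had 20443, 16561 and 23657, and Krt19 had 3016, 2618 and 5113. Krt7, at 290, 183 and 49.7, was the only one of the 5 that passed (log2 fold change 2.19 ± 0.36, limma adjusted p = 0.0119). Of 12 markers of other cell types 2 were in the table, Cd68 (105, 87.5 and 88.6 scaled counts) and the smooth muscle actin gene Acta2 (1.05, 69.0 and 0.974 scaled counts). Acta2 was thus highest in library 21, the library with the lower ribosomal protein values below, and the part of other cells in those values was not tested.

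No ribosomal protein gene passed the test for shNF2 against shSC, where 0.843% of all tested genes passed, so that 0 of 85 lay near the share of all genes. Nearly all of the 85 were lower in library 21 than in library 20, and library 20 itself lay close to shSC. The 85 genes held 11.5% of the reads in genes in library 20, 9.14% in library 21 and 11.9% in shSC. The Wilson 95% intervals of these shares, which cover counting error only, ran over 11.44% to 11.47%, 9.13% to 9.15% and 11.86% to 11.89%. The large subunit genes held 5.95% in library 20, 4.77% in library 21 and 6.11% in shSC, and the small subunit genes held 5.23%, 4.11% and 5.45%. Both subunits thus had their lowest share in library 21.

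With limma on log2(scaled count + 1) and Benjamini-Hochberg adjustment over all 12813 genes, 0 of the 85 genes passed at 0.05, where 0.843% of all genes passed in either direction (0.414% higher and 0.429% lower). edgeR's quasi-likelihood test and DESeq2 on the recovered reads also called 0 of the 85, where they called 0.632% and 0.765% of all genes. At an unadjusted p under 0.05, limma had 5 of the 85 (5.88%), all of them lower, beside 4.91% of all genes that were lower, 4.36% that were higher and 9.27% in either direction. These 5 were Rpl41, Rpl22l1, Rpl19, Rpl35 and Rpl34. At the same limit edgeR had 6 of the 85, beside 9.12% of all genes, and DESeq2 had 10 of the 85, beside 5.56% of all genes. The smallest adjusted p among the 85 genes was 0.391 by limma (Rpl41).

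Both shNF2 libraries were set against the same shSC library, so the chance value of that library enters both differences. In library 20 the median log2 difference from shSC was -0.07 over the 85 genes, beside 0.0066 over all tested genes, and its quartiles were -0.21 and 0.05. This value changed sign with the setting: it was 0.077 under quantile normalization, 0.024 with scaling to total reads and 0.0055 after a correction for length and GC. Over all genes of each setting the library 20 median was 0.0074, 0.096 and 0.021. By median, the ribosomal protein genes thus lay above all genes only under quantile normalization. In library 21 the median was -0.49, beside -0.0023 over all tested genes, with quartiles of -0.65 and -0.31, and it stayed below 0 under each of these settings (-0.26, -0.35 and -0.31). Library 21 minus library 20, which does not use shSC, had a median of -0.37 over the 85 genes and 0.0062 over all tested genes. The mean of both libraries gave a median log2 fold change of -0.31, beside -0.0043 over all tested genes.

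By count, with the scaling as deposited, 51 of the 85 genes were below shSC in library 20 (beside 49.3% of all tested genes) and 80 in library 21 (94.1%, beside 50.5%). Both libraries were below shSC for 51 genes (beside 35.8%), both were above it for 5 genes (5.88%, beside 36.1%), and 29 genes were mixed. Library 21 was below library 20 for 82 genes (96.5%, beside 49.2% of all tested genes). The 3 exceptions were Rpl39, Rpl22l1 and Rpl19. A value at least 1.5-fold below shSC was found for 1 gene in library 20 (Rpl22l1, 1.18%, beside 7.69% of all tested genes) and for 33 genes in library 21 (38.8%, beside 10.8%). No gene of the 85 was 1.5-fold above shSC in either library, beside 6.82% of all tested genes in library 20 and 8.23% in library 21.

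**Figure D1:**
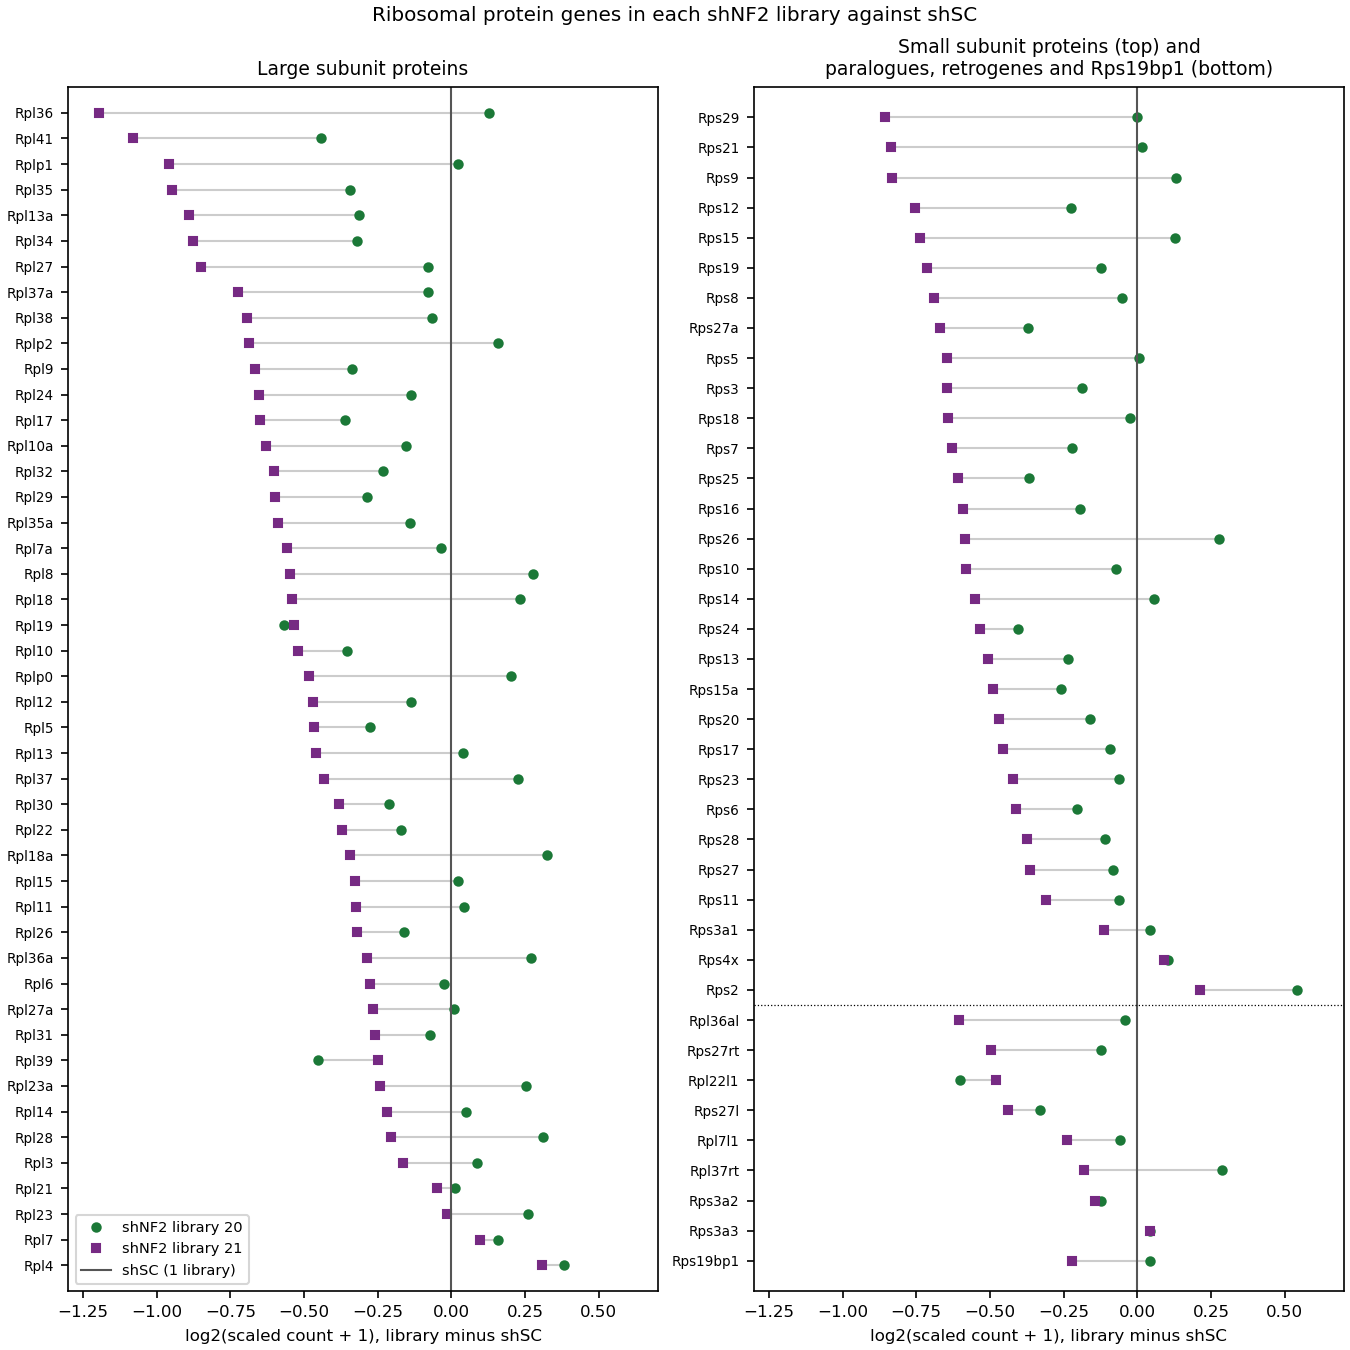
Difference in log2(scaled count + 1) from the shSC library (horizontal axis) for each of the 85 genes (rows), in shNF2 library 20 (circles) and shNF2 library 21 (squares), with the scaling as deposited. Library 21 lies left of shSC for 80 genes and left of library 20 for 82, and library 20 lies on both sides of shSC, with a median of -0.07 whose sign changed under other scalings. That median lay above the median of all genes only under quantile normalization.

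With the scaling as deposited, the lowest mean differences were found among large subunit genes. Scaled counts are not per length, so levels are compared between libraries and not between genes. Rpl41, which encodes a very short basic peptide of the large subunit, had 67700.4 scaled counts in library 20 and 43488 in library 21 against 91905 in shSC, a log2 fold change of -0.76 ± 0.29 (unadjusted p = 0.0214 by limma, adjusted p = 0.391). Rpl35, whose product sits near the exit of the peptide tunnel, had 37180.4 and 24462 scaled counts in libraries 20 and 21 against 47185 in shSC (-0.65 ± 0.27, adjusted p = 0.47). In both genes each shNF2 library was below shSC and library 21 was the lower one. The same order held for Rpl13a, which also encodes a regulator of inflammatory transcripts when released from the ribosome, at 87313 and 58598 scaled counts against 108492 in shSC (-0.60 ± 0.29, adjusted p = 0.564). Rpl34, another large subunit protein gene, had 42386 and 28789 scaled counts against 52882 in shSC (-0.60 ± 0.27, adjusted p = 0.517). After the length and GC correction, Rpl41 was at -0.04 in library 20 and -0.46 in library 21. The corrected values were -0.22 and -0.50 for Rpl35, -0.28 and -0.68 for Rpl13a, and -0.22 and -0.73 for Rpl34. Rpl41 was thus the least low of these genes after the correction.

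A second set was, with the scaling as deposited, about as low in library 20 as in library 21, or lower. Rpl19, whose product helps to bridge the subunits, had 24676 and 25309 scaled counts in libraries 20 and 21 against 36616 in shSC, a log2 fold change of -0.55 ± 0.23 (limma adjusted p = 0.444). Rpl22l1, the paralogue of Rpl22, had 11119 and 12095 scaled counts against 16868 in shSC (-0.54 ± 0.21, adjusted p = 0.429). Rpl39, which encodes a small protein that lines the peptide tunnel, had 10141 and 11678 scaled counts against 13887 in shSC (-0.35 ± 0.22, adjusted p = 0.687). These were the 3 genes in which library 21 was above library 20, by 0.04, 0.12 and 0.20 on the log2 scale. After the length and GC correction, Rpl19 was at -0.53 and -0.32 in libraries 20 and 21, and Rpl22l1 at -0.51 and -0.34. Rpl39 was then at -0.20 in library 20 and 0.13 in library 21, so that it was below shSC in library 20 alone.

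**Figure D2:**
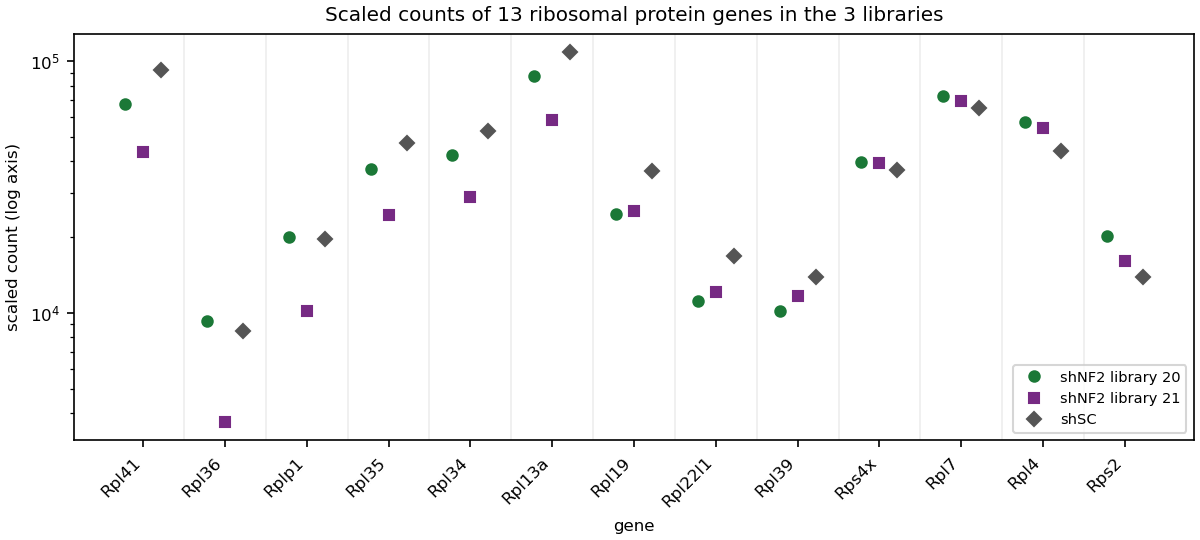
Scaled counts (log axis) of 13 ribosomal protein genes in shNF2 library 20 (circles), shNF2 library 21 (squares) and shSC (diamonds), with the scaling as deposited, 1 point per library. Rpl41, Rpl35, Rpl34 and Rpl13a are lowest in library 21, with library 20 between library 21 and shSC, Rpl36 and Rplp1 are low in library 21 alone, Rpl19, Rpl22l1 and Rpl39 are low in both, and Rps4x, Rpl7, Rpl4 and Rps2 are above shSC in both.

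The stalk proteins of the large subunit, which recruit the elongation factors, and Rpl36 were low in library 21 and not in library 20. Rplp0, the base of the stalk, had 47620.1 scaled counts in library 20 and 29569 in library 21 against 41377 in shSC. Its partner Rplp1 had 20024 and 10140.0 against 19706 in shSC, and Rplp2 had 12077 and 6734 against 10832 in shSC. In all 3 genes library 20 was above shSC and library 21 below it, and library 21 was lower than library 20 by log2 differences of -0.69, -0.98 and -0.84. Rpl36, a small large-subunit protein gene, had 9266 scaled counts in library 20 and 3698 in library 21 against 8477 in shSC. Its difference between the shNF2 libraries (-1.32) was the most negative of the 85 genes. The mean log2 fold changes of these 4 genes were -0.14 (Rplp0), -0.47 (Rplp1), -0.26 (Rplp2) and -0.53 (Rpl36), with limma adjusted p-values of 0.922, 0.714, 0.83 and 0.728. The value of Rplp0 was 0.09 under quantile normalization and that of Rplp2 was 0.07 after the length and GC correction.

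Rpl5 and Rpl11 join the 5S ribosomal RNA and, when free of the ribosome, bind Mdm2, the ligase that restrains p53. Rpl5 had 51199 and 44812 scaled counts in libraries 20 and 21 against 61957 in shSC (log2 fold change -0.37 ± 0.24, limma adjusted p = 0.699). Rpl11 had 22813 and 17674 against 22131 in shSC (-0.14 ± 0.24, adjusted p = 0.896). Thus Rpl5 was below shSC in both libraries and Rpl11 in library 21 alone, and the value of Rpl11 was 0.00012 under quantile normalization.

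Among other large subunit genes, Rpl4 and Rpl7 were above shSC in both shNF2 libraries. Rpl4, whose product reaches into the peptide tunnel, had 57185 and 54218 scaled counts in libraries 20 and 21 against 43864 in shSC (log2 fold change 0.34 ± 0.24, limma adjusted p = 0.722). Rpl7 had 72647 and 69563 against 65117 in shSC (0.13 ± 0.25, adjusted p = 0.919). Rpl23 had 21756 and 17981 against 18179 in shSC (0.12 ± 0.23, adjusted p = 0.91), so that library 21 was level with shSC. Rpl3, whose product lies next to the centre that joins amino acids, had 41217 and 34658 against 38844 in shSC (-0.04 ± 0.24, adjusted p = 0.973). Rpl32 had 115655 and 89411 against 135738 in shSC (-0.42 ± 0.28, adjusted p = 0.707), with both libraries below shSC. The sign of Rpl3 changed under quantile normalization (0.15) and with scaling to total reads (0.08).

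The small subunit genes had a median log2 difference from shSC of -0.08 in library 20 and -0.58 in library 21, beside -0.05 and -0.48 for the large subunit genes. All 30 small subunit genes were lower in library 21 than in library 20, and so were 44 of the 46 large subunit genes. Rps6, the substrate of the S6 kinases, had 24219.6 and 21013 scaled counts in libraries 20 and 21 against 27934 in shSC (log2 fold change -0.31 ± 0.23, limma adjusted p = 0.737). Rps19, which is mutated in many people with Diamond-Blackfan anaemia, had 47530.2 and 31577 against 51759 in shSC (-0.42 ± 0.27, adjusted p = 0.699). Rps27a, which encodes a subunit protein fused to ubiquitin, had 82332 and 67030.4 against 106512 in shSC (-0.52 ± 0.26, adjusted p = 0.601). In each of these 3 genes both shNF2 libraries were below shSC. Rps14, whose loss is linked in people to the anaemia of the 5q- syndrome, had 41232 and 27048 against 39651 in shSC (-0.25 ± 0.27, adjusted p = 0.83). Rps26 had 8189 and 4508 against 6765 in shSC (-0.15 ± 0.29, adjusted p = 0.911). For Rps14 and Rps26 library 20 was above shSC and library 21 below it, and the value of Rps26 was 0.0024 after the length and GC correction.

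Rps3, a protein of the messenger RNA entry site, and Rps24 took the most scaled counts of the 85 genes, a value that is not per length. Rps3 had 162402 scaled counts in library 20 and 118087 in library 21 against 184801 in shSC (log2 fold change -0.42 ± 0.30, limma adjusted p = 0.728). Rps24 had 120001 and 109817 against 158831 in shSC (-0.47 ± 0.27, adjusted p = 0.669). Both were below shSC in both libraries, but under quantile normalization, which pulls the highest genes to common values, they were at 0.19 and 0.02. Rps9 had 64115 and 32922 scaled counts against 58581 in shSC (-0.35 ± 0.33, adjusted p = 0.795), and Rps15 had 36376 and 19949 against 33262 in shSC (-0.30 ± 0.31, adjusted p = 0.807). These 2 had the largest gaps between the shNF2 libraries among small subunit genes (-0.96 and -0.87), and Rps15 was at 0.03 after the length and GC correction.

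Rps2 and Rps4x were the small subunit genes above shSC in both libraries. Rps2 had 20146 and 16068 scaled counts in libraries 20 and 21 against 13855 in shSC, the highest mean log2 fold change of the 85 genes (0.38 ± 0.23, limma adjusted p = 0.683). Rps4x, the X-linked gene of its protein, had 39916 and 39491 against 37115 in shSC (0.10 ± 0.23, adjusted p = 0.936). Neither passed the test.

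The paralogues were set beside their parent genes, and since near-identical copies share reads, these values are uncertain. Rpl22 had 38326 and 33333 scaled counts in libraries 20 and 21 against 43129 in shSC (log2 fold change -0.27 ± 0.24, limma adjusted p = 0.778), where its paralogue Rpl22l1 had -0.54 and was low in both libraries. Rps27l, which p53 is known to induce, had 35953 and 33408 against 45239.7 in shSC (-0.38 ± 0.23, adjusted p = 0.682). Its parent Rps27 had 36558 and 30022 against 38684 in shSC (-0.22 ± 0.24, adjusted p = 0.823), and was at 0.00053 under quantile normalization and 0.0078 after the length and GC correction. Rps27rt, with the second lowest mean, had 627 and 484 against 683 in shSC (-0.31 ± 0.26, adjusted p = 0.768). With the scaling as deposited, Rps27l, Rps27 and Rps27rt were thus all below shSC in both libraries. After the length and GC correction, Rps27 was at 0.07 in library 20 and -0.05 in library 21.

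Rpl36al had 7104 and 4813 scaled counts in libraries 20 and 21 against 7316 in shSC (log2 fold change -0.32 ± 0.25, limma adjusted p = 0.745). Its parent Rpl36a had 17693 and 12018 against 14658 in shSC, a mean of -0.01 ± 0.25 whose sign changed under 5 other settings (0.01 to 0.14). Rpl7l1 had 16519 and 14571 against 17199 in shSC (-0.15 ± 0.22, adjusted p = 0.877), and was at 0.03 under quantile normalization. Both paralogues were below shSC in both libraries with the scaling as deposited. After the length and GC correction, Rpl36al was at 0.08 in library 20 and -0.43 in library 21. Rps3a2 had 908 and 896 against 989 in shSC (-0.13 ± 0.23), and Rps3a3 had 549 and 549 against 533 in shSC (0.04 ± 0.25). Their parent Rps3a1 had 41262 and 36963 against 40029 in shSC (-0.04 ± 0.24), with a changed sign under quantile normalization (0.16) and with scaling to total reads (0.08). Rpl37rt had 811 and 586 against 664 in shSC (0.05 ± 0.26). None of these 4 genes was more than 0.3 log2 units from shSC in either library.

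Some genes of ribosomal proteins and their partners have symbols that the rule leaves out, and the 3 given here did not pass the test. Fau, which encodes a small subunit protein fused to a ubiquitin-like one, had 18902 and 11284 scaled counts in libraries 20 and 21 against 19370.2 in shSC (log2 fold change -0.41 ± 0.28, limma adjusted p = 0.715). Fau was level with shSC in library 20 and low in library 21. Gnb2l1, the gene of the scaffold protein Rack1, had 104609.9 and 74054 against 95649.6 in shSC (-0.12 ± 0.28, adjusted p = 0.935; 0.29 under quantile normalization). Rpsa, the gene of the small subunit protein also known as a laminin receptor, had 75236 and 57297 against 62991 in shSC (0.06 ± 0.26, adjusted p = 0.965). All 3 were lower in library 21 than in library 20.

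The other lists of the translation machinery had 0 genes that passed in either direction, beside 0.843% of all tested genes. In lists this short, 0 lies near that share. Elongation factors and other genes with terminal oligopyrimidine tracts (22 tested) had medians of 0.06 in library 20 and -0.21 in library 21, beside -0.07 and -0.49 for the ribosomal protein genes. Their smallest p-values were those of the small nucleolar RNA host genes Snhg6 (-0.62), Snhg1 (-0.52) and Snhg12 (-0.46) and of the RNA-binding protein gene Hnrnpa1 (0.53). Other initiation factors (31 tested) had medians of 0.17 and 0.10 in libraries 20 and 21, with Eif4a2 at -0.45, Eif2s2 at -0.41, Eif3j1 at 0.40 and Eif3g at 0.37. RNA polymerase I and assembly factors (35 of 37 tested) had medians of 0.08 and 0.06, with nucleolin (Ncl) at 0.64, Nip7 at -0.57, Taf1c at -0.58 and Tsr1 at 0.38. In these 3 lists the medians of both libraries lay closer together than those of the ribosomal protein genes, and the differences between lists were not tested.

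The ribosomal S6 kinases and mTORC1 genes (18 of 20 tested) had medians of -0.06 in library 20 and 0.03 in library 21. Rps6ka5, the gene of the nuclear kinase MSK1, had 195 and 195 scaled counts in libraries 20 and 21 against 68.2 in shSC (log2 fold change 1.5 ± 0.33, limma adjusted p = 0.0562). It passed without the filter on low values (adjusted p = 0.0117) and with scaling to total reads (0.00499), and over all settings its adjusted p lay between 0.00499 and 0.523. Rps6ka2 was at 0.78, Rheb, the activator of mTORC1, at 0.38 and the RNA-binding protein gene Larp4 at 0.27. Proteins of the mitochondrial ribosome (80 tested) had medians of -0.02 in library 20 and -0.27 in library 21, and nuclear genes of oxidative phosphorylation (72 tested) had -0.09 and -0.39. For both lists library 21 was thus the lower one, as for the cytosolic ribosomal protein genes. The 9 mitochondrially encoded genes ran the other way, at medians of -0.78 (library 20) and -0.50 (library 21).

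**Figure D3:**
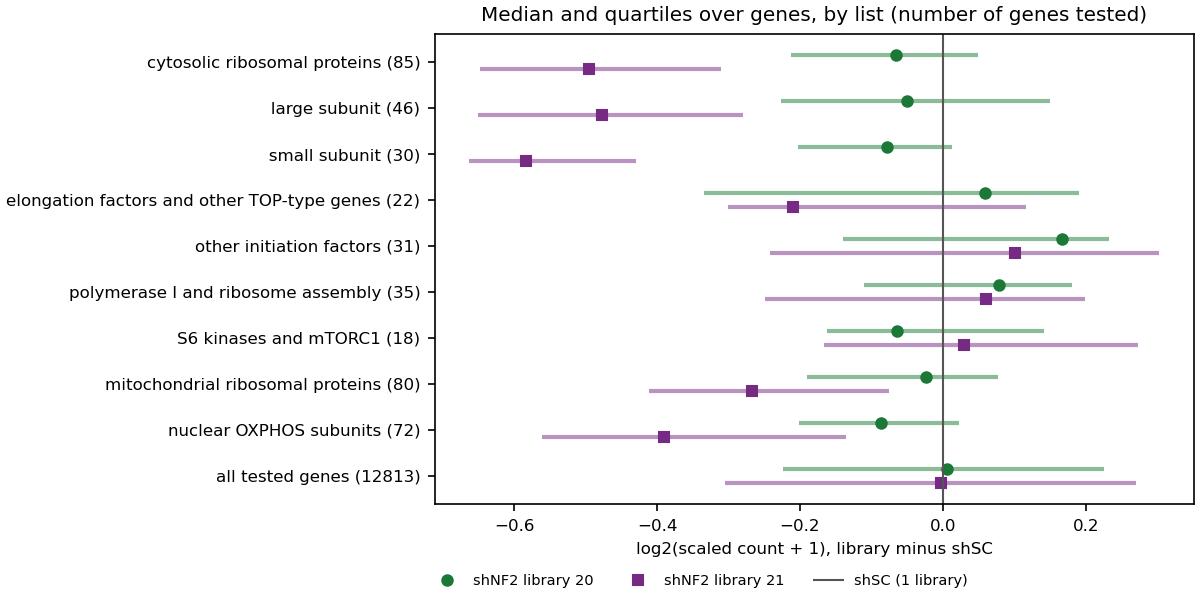
Median (points) and quartiles (lines) over the genes of each list of the difference in log2(scaled count + 1) from the shSC library, in shNF2 library 20 (circles) and shNF2 library 21 (squares), with the number of genes tested beside each list. The cytosolic ribosomal protein genes lie at -0.07 in library 20, a value whose sign changed under other scalings, and at -0.49 in library 21, while all tested genes lie at 0.0066 and -0.0023. In library 20 their median lay above that of all genes only under quantile normalization.

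Pseudogene rows, taken by -ps in the symbol, were counted beside their parent genes. Copies under any other symbol were not searched for, so the counts and shares below are lower limits. Of the 85 genes, 44 had at least 1 such row in the table and 41 had none. The pseudogene rows together held 0.0969% of the reads in genes in library 20, 0.0788% in library 21 and 0.0926% in shSC. They exceeded 5% of the parent gene's level in shSC for 2 genes, Rpl14 (16.1%) and Rpl3 (8.74%), so these 2 are the least certain by this measure. Rpl14 itself had 44240.3 and 36719 scaled counts in libraries 20 and 21 against 42734 in shSC. The 62 tested pseudogene rows had medians of -0.18 in library 20 and -0.54 in library 21. Over the 27 rows with a mean of at least 100, the difference of the row and that of its parent had a Spearman's rho of 0.807 in library 20 and 0.627 in library 21 (Pearson's r 0.606 and 0.604). These are correlations across genes of the same libraries, which share the shSC library, and transcription of the pseudogenes and misplaced reads of the parents cannot be told apart. The table keeps reads that were not uniquely aligned in a row of their own, which held 36.5% of all reads in library 20, 35.5% in library 21 and 37.5% in shSC.

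Base composition moved with the gap between the shNF2 libraries. No mouse transcripts were used here, so the GC content and coding length of human transcripts of the same gene symbol stood in for them, for 81 of the 85 genes and 10303 of all tested genes. Across the 81 genes, which share the libraries and their depth, Spearman's rho between GC and library 21 minus library 20 was -0.439 (Pearson's r -0.498), and across all 10303 genes it was -0.422. Against shSC, rho over the 81 genes was 0.26 in library 20 and -0.25 in library 21. Over all 10303 genes the values against shSC were -0.034 and -0.37. In 4 bands of rising GC (30 to 45%, 45 to 50%, 50 to 55% and 55 to 75%, with 20, 23, 20 and 18 ribosomal protein genes) the median of library 21 minus library 20 was -0.28, -0.28, -0.47 and -0.63. In the same bands all genes with a stand-in had medians of 0.13, 0.05, -0.04 and -0.20. The median of the ribosomal protein genes was thus below that of all genes of the band, themselves included, in each of the 4. Their median GC, by the stand-ins, was 48.9%, beside 49.0% for all 10303 genes.

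Coding length moved with the values too. The stand-ins of the ribosomal protein genes had a median coding length of 459 bases, beside 1419 bases over all 10303 genes with a stand-in. In genes of 60 to 400, 400 to 600 and 600 to 2000 coding bases, with 25, 32 and 24 ribosomal protein genes, their median log2 difference from shSC in library 21 was -0.60, -0.52 and -0.46. All genes with stand-ins of those lengths, the ribosomal protein genes included, had -0.36, -0.20 and -0.0025. In library 20 the ribosomal protein genes had -0.11, -0.07 and -0.01, beside -0.14, -0.06 and 0.04 for all genes of those lengths. After each library's trend with length and GC was subtracted, the median over the 81 genes was 0.0055 in library 20, -0.31 in library 21 and -0.28 for library 21 minus library 20. Over all genes with a stand-in these medians were 0.021, -0.0010 and -0.021. The part of library preparation in the remaining difference was not tested.

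**Figure D4:**
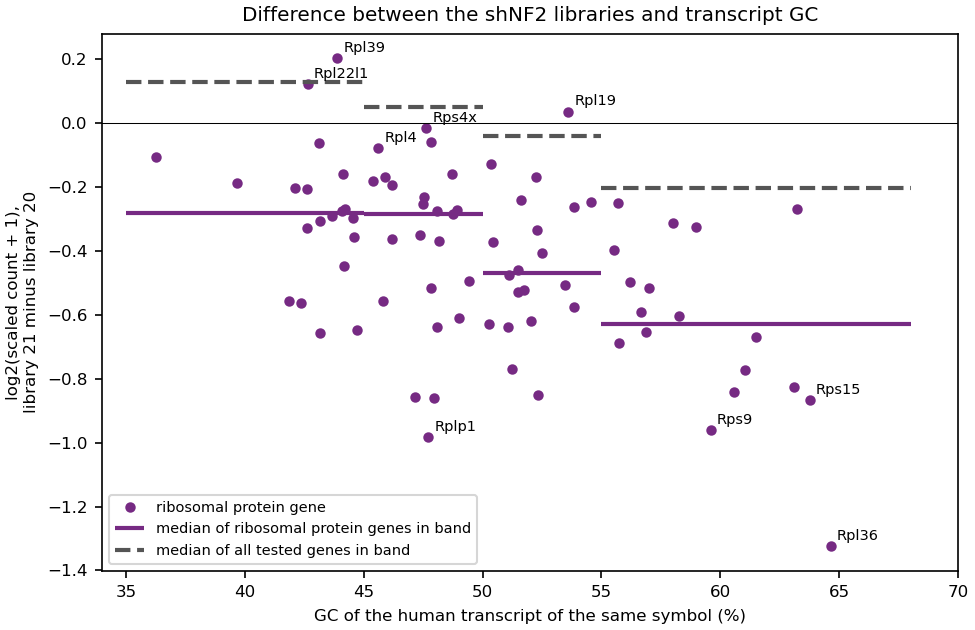
Difference in log2(scaled count + 1) between shNF2 library 21 and shNF2 library 20 (vertical axis) against the GC content of the human stand-in transcript (horizontal axis) for 81 ribosomal protein genes (points). Solid lines are the medians of these genes in 4 bands of GC and run from -0.28 to -0.63. Dashed lines are the medians of all tested genes with a stand-in in the same bands and run from 0.13 to -0.20.

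The comparison of shNF2 with shSC has 1 residual degree of freedom per gene, between libraries 20 and 21. The limma prior, from the variance trend over all tested genes, added 11.9. The single shSC library was assumed to vary as the shNF2 libraries do. An exact test of 2 libraries against 1 cannot give a two-sided p below 0.333.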

How the data were processed

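RNA of 2 shNF2 libraries and 1 shSC library was sequenced as polyA-selected, stranded read pairs, per the labels' protocols. The authors deposited 1 table of gene signal, named as scaled counts. STAR 2.5.0a, HTSeq 0.5.3, DESeq 1.22.1, cutadapt 1.6 and the mouse build mm10 are listed per the submitters' processing notes, which state neither roles nor order; the organism label reads human, but the identifiers are mouse. Whether strand was used in counting is not stated, so antisense overlaps cannot be told apart. With a tolerance of 0.001 reads, 100% of the deposited values were whole reads divided by 1 factor per library (0.956 for library 20, 1.03 for library 21 and 1.03 for shSC). The 4 rows that name no gene held 48.7%, 47.7% and 48.6% of the reads in library 20, library 21 and shSC and were left out. No gene in the table had fewer than 15 reads in all.

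limma 3.58.1 in R 4.3.3 was fitted on log2(scaled count + 1), with a trend of variance on level, of 12813 genes (mean of 10 or more). P-values were adjusted by Benjamini-Hochberg, and 0.05 was the threshold. Fold changes on that scale understate the change of low genes. The prior had 11.9 degrees of freedom and the median standard error was 0.26 (log2). edgeR 4.0.16 and DESeq2 1.42.0 on the recovered reads, which called 81 and 98 genes, were alternatives, beside other pseudocounts, filters and scalings. A correction for length and GC (mgcv 1.9.3), with stand-ins from human GENCODE transcripts (80.4% of tested genes), was chosen after seeing the data. The main limma fit, edgeR and DESeq2 were first tested on simulated counts with known changes, which were larger than the fold changes of the ribosomal protein genes. The other settings were not tested in this way.

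The genes and lists were chosen with earlier results of these data known. Named genes were the stalk and other genes set by role, paralogues with their parents, the extremes by level, fold change, p and gap between libraries, all listed genes outside the symbol rule, and up to 4 genes with the smallest p of each other list of the translation machinery. Rpl14 was named after its values were seen. One gene of the rule is not reported here.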

Additional observations from a re-analysis of the deposited data

How the results depend on the processing

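The count of ribosomal protein genes passing the test was 0 under every setting run, with 0 to 10 genes at an unadjusted p under 0.05. Of all genes, 108 passed (53 higher, 55 lower); 232 passed without the filter on low values (110 higher, 122 lower), 227 with scaling to total reads (138 higher, 89 lower), 69 after the length and GC correction, where fewer genes were tested, 0 under quantile normalization and 0 without a variance trend; the other causes were not tested. At an unadjusted p under 0.05, quantile normalization had 882 genes and the fit without a trend 1036. The median log2 fold change of the 85 genes lay between -0.32 (TMM scaling) and -0.12 (quantile normalization); with scaling to total reads it was -0.19 where the median of all genes was 0.11. Leaving out 1 shNF2 library gave -0.49 (without library 20) and -0.07 (without library 21). The library 20 median turned positive under 3 settings (0.077, 0.024 and 0.0055), the library 21 median stayed between -0.53 and -0.26, and library 21 minus library 20 between -0.38 and -0.28. Under those 3 settings the library 20 median over all genes was 0.0074, 0.096 and 0.021. Of the 61 genes of the naming rule 13 changed sign with another scaling, tool or correction, and none of these 13 had passed; the cause was not tested. Leaving out library 21 turned the sign of 13 genes of the rule and leaving out library 20 that of 3, among them Rpl36 (0.13 without library 21, -0.53 with both) and Rpl23 (-0.016 without library 20, 0.12 with both). Under quantile normalization Gnb2l1 was 0.29, Rpl11 0.00012, Rpl3 0.15, Rpl36a 0.14, Rpl7l1 0.025, Rplp0 0.092, Rps24 0.017, Rps27 0.00053, Rps3 0.19 and Rps3a1 0.16. With scaling to total reads Rpl3 was 0.076, Rpl36a 0.11 and Rps3a1 0.080. Rpl36a was 0.010 with edgeR and 0.018 with DESeq2. After the length and GC correction Rpl36a was 0.093, Rplp2 0.074, Rps15 0.029, Rps26 0.0024 and Rps27 0.0078. Leaving out a library leaves no residual degree of freedom, so the counts have no such value. No paired analysis was possible because the shSC library shares no replicate number with libraries 20 and 21. The lowest of the 85 genes had a mean of 544 scaled counts, and shSC has no replicate.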
